A study of Mus musculus with 6 samples.

Results

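DEAD and DEAH box proteins are RNA helicases, named for the amino acid letters of a motif that binds ATP. They were followed here in murine pre-B cells after ionizing radiation. The genes were taken by name, as every gene symbol of the array annotation made of Ddx or Dhx and a number, apart from Dhx58, and a member had to reach a signal of 100 on at least 1 array. This gave 47 of 50 named genes, 32 Ddx and 15 Dhx, among 9678 genes measured in all. The rule itself uses no change after irradiation. Ddx4, Ddx43 and Ddx60 stayed below 100, with highest signals of 14.1, 15.8 and 18.03. Just inside the limit were Ddx25, with a highest signal of 122.0, and Dhx37, with 145.6. All 3 probe sets of Dhx58, the gene set aside by name, were also below 100, the highest signal being 83.9.

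The study asked how lymphocyte precursors in G1 phase change their gene expression after DNA breaks. It used 3 independently derived WT pre-B lines transformed with the v-Abl kinase, all carrying an Eμ-Bcl2 transgene, which protects cells from apoptosis, so that every array of either dose shares the transformation and the transgene. The Eμ enhancer drives that transgene in lymphoid cells. Cells were held for 48 hours in 3 μM STI-571 (imatinib), which blocks the Abl kinase and stops the cells in G1, were given 0 Gy (mock) or 1 Gy of γ-rays at 0.72 Gy per minute from a caesium source, and were collected 2 hours later. Each line gave 1 array of each dose, so that there were 3 arrays per dose (n = 3). With the line taken into account, p-values set the dose change against its variation from line to line.

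An ATP-driven helicase of this kind loosens short stretches of paired RNA or strips proteins from RNA. DEAD box proteins mostly open short duplexes locally, and many DEAH box proteins move along a strand. Between them the members serve ribosome assembly in the nucleolus, successive rearrangements of the spliceosome, the export of mRNA, the start of translation, and the storage and decay of mRNA. Ddx58, called RIG-I, stands apart by task, as does the DNA helicase Ddx11. Ddx58 recognises foreign RNA in the cytosol and signals through Mavs to the interferon genes. In a growing lymphocyte precursor the bulk of these proteins work as housekeeping factors of RNA metabolism.

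A signal is the linear intensity of 1 probe set, that is of several short probes for 1 transcript, placed toward its 3' end, and signals of different probe sets are not on 1 scale. Between 41.7% and 43.8% of probe sets reached 100 on each array, with a median signal of 51.6 to 59.4. The 7 pre-B markers on the array, such as Cd79b and Vpreb1, all reached 4979 or more on their brightest array. No T cell (0 of 6), erythroid (0 of 4) or stromal (0 of 5) marker reached 100. Of 6 myeloid markers 2 did, and they moved with dose in opposite directions. Itgam went from 151.8 ± 18.8 to 279.4 ± 55.7 (SD, n = 3; adjusted p = 0.0227) and Csf1r from 68.2 ± 43.8 to 33.5 ± 11.5 (adjusted p = 0.0478), which reached 100 on 1 mock array only, neither being called with dose alone (adjusted p = 0.0680 and 0.379). The summed signal of the 6 was 237.0 to 313.0 on mock arrays and 329.6 to 418.8 on irradiated ones, with Lyz2, Cd14, Mpo and Elane below 100 throughout, and their part in the results below was not tested. The 3'/5' signal ratio of actin, a sign of RNA quality, was 1.44 ± 0.0513 on mock and 1.32 ± 0.06 on irradiated arrays (SD, n = 3; exact two-sided permutation p = 0.1, the smallest that 3 against 3 arrays allow). The same ratio of Gapdh was 0.82 ± 0.0701 on mock and 0.793 ± 0.00755 on irradiated arrays (p = 0.9 in the same permutation test).

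The members with a called change were 2 of 47, Ddx58, which fell, and Ddx54, which rose. A call is an adjusted p under 0.05 in limma, with the cell line as a block, where the Benjamini-Hochberg step covered 21762 probe sets. These 2 are 4.26% of the members, against 21.3% of all 9678 genes called in the same fit. By direction, 1 member of 47 was called higher against 6.61% of all genes, and 1 was called lower against 14.7%. In the fit with dose alone, which ignores the line, no member was called, against 5.31% of genes (limma). At an unadjusted p under 0.05 that fit gave 6 members higher and 3 lower, while 5004 of all 21762 probe sets passed. The fit with the line gave 6 and 5 at that threshold, together 23.4% of the members against 40.3% of all genes.

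The promoters of both called genes are shown first, because the letters in them differ in kind. They were taken from RefSeq (GRCm38.p6) and run 5' to 3' along the gene from 250 bases before the annotated start to 50 after it. Capitals mark matches, on either strand, to a fixed set of short motifs.
Ddx58 (chr4:40239776-40240075, minus strand): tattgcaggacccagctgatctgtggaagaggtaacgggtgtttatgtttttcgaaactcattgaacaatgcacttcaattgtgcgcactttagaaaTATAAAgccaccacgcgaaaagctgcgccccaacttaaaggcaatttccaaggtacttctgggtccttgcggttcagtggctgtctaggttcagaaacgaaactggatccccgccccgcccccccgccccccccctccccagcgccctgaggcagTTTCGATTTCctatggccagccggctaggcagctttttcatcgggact
Ddx54 (chr5:120612880-120613179, plus strand): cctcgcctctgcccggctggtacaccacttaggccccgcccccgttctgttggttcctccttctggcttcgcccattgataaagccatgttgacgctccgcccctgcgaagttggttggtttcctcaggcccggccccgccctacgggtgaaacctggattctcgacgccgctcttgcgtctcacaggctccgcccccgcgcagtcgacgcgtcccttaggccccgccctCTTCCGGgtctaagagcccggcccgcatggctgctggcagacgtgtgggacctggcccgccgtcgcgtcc
In Ddx58 the capitals are the TATA letters (TATAAA), 153 bases upstream of the start, and, at the start site, a match to the interferon response element searched as GAAA, any 2 bases and GAAA, read on the opposite strand. In Ddx54 they are the ETS letters (CCGGAAG), also on the opposite strand. The interferon response letters stood in 5.66% of the 53 member promoters (2 of 42 genes). The share was 3.44% in all 32851 promoters of the same length and 3.07% in those of genes measured here. TATA letters stood in 9.43% of member promoters, 13.6% of all and 6.57% of those of genes measured.

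Promoters were found for 42 of the 47 members, 53 in all, and Ddx6, Ddx11, Ddx23, Ddx39a and Dhx38 had none in the table. Letters of ETS factors were in 21 of 53 member promoters (39.6%, 19 of 42 genes). The share was 8.86% in all promoters and 19.6% in the 10133 promoters of genes measured here. Member promoters had a median GC content of 60.0%, close to the 61.0% of the genes measured and above the 52.7% of all. These shares are a description with no test, and a match is not a bound site. Windows of 27 bases around the letters show how the flanks differ from gene to gene, each turned so that the capitals read forward. They are given for members whose signals on all arrays are described further on.
Ddx54 (chr5:120613100-120613126): gctcttagacCCGGAAGagggcggggc
Ddx39b (chr17:35241712-35241738): gcgcaaggagCCGGAAGcaggctttcg
Ddx5 (chr11:106789005-106789031): caccaactcaCCGGAAGcgcggctcca
Ddx17 (chr15:79546954-79546980): gcccagagacCCGGAAGtctgactaag
Dhx30 (chr9:110117664-110117690): ggccgctccgCCGGAAGtcccgcctgt
Dhx34 (chr7:16222013-16222039): ccatttaggaCCGGAAGttgaggcgtc
Of these 6 genes only Ddx54 was called. Cyclic AMP response letters (TGACGTCA) were in 9.43% of member promoters (4 of 42 genes), 1.79% of all and 3.29% of those of genes measured. The E-box letters CACGTG were in 11.3%, 7.15% and 10.6%, and CCAAT in 43.4%, 37.4% and 38.1%. Those of NRF1 (GCGCA and then its reverse complement) were in 5.66% (2 of 42 genes), 0.971% and 2.38%. Ddx49 and Dhx34 have overlapping promoters, so that the same site in them is counted more than once. The NF-κB letters (GGG, any 2 bases and TTTCC) were in no member promoter, in 1.63% of all and in 1.64% of those of genes measured.

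Ddx58 fell in all 3 lines. Its brightest probe set gave 727.1, 868.5 and 525.5 on the mock arrays of lines 1 to 3 and 362.8, 353.2 and 230.0 after 1 Gy. The lowest mock array lay above the highest irradiated one. The log2 change was -1.17 (SE 0.123, 95% interval -1.49 to -0.84, adjusted p = 0.0147, limma), which is 2.24-fold lower, and the 3 lines gave changes of -1.003, -1.298 and -1.192. With dose alone the log2 change was the same and the adjusted p was 0.0726, and with 1 line left out the log2 change was -1.25 to -1.10 and the adjusted p 0.0573 to 0.0653. In those smaller fits 0 to 299 of all probe sets were called. In RNA from a whole culture, fewer cells that carry a transcript and less of it per cell cannot be told apart.

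A further 2 probe sets of Ddx58 passed the signal minimum, both only through mock arrays. The first gave 247.3, 217.6 and 122.0 on mock arrays and 82.6, 81.8 and 35.2 on irradiated ones. The second gave 149.4, 118.0 and 122.4 against 84.2, 84.1 and 54.1. In both the 3 irradiated arrays were below 100 and below every mock array. A minimum reached on mock arrays alone favours a lower value after 1 Gy, and the 3 probe sets measure the same RNA samples, so that the fall of Ddx58 is given from the brightest alone.

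Ddx54, a nucleolar helicase of ribosome assembly that also binds nuclear receptors, was the only member called higher. Its brightest probe set gave 8728, 8644 and 9429 on mock arrays and 13014, 11305 and 14748 after 1 Gy, with no overlap between the doses. The log2 change was 0.54 (SE 0.121, 95% interval 0.22 to 0.86, adjusted p = 0.0472), a 1.45-fold rise. An ending of _x_at marks a probe set whose probes may also match other transcripts. The other tested probe set of the gene, without that ending, gave a log2 change of 0.66 (adjusted p = 0.0346). The call of the brightest probe set sits at the threshold. The adjusted p was 0.108 with dose alone, 0.0723 after quantile normalization, 0.0502 with a common median, and 0.104 to 0.187 with 1 line left out, where few probe sets of any gene passed.

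**Figure D1:**
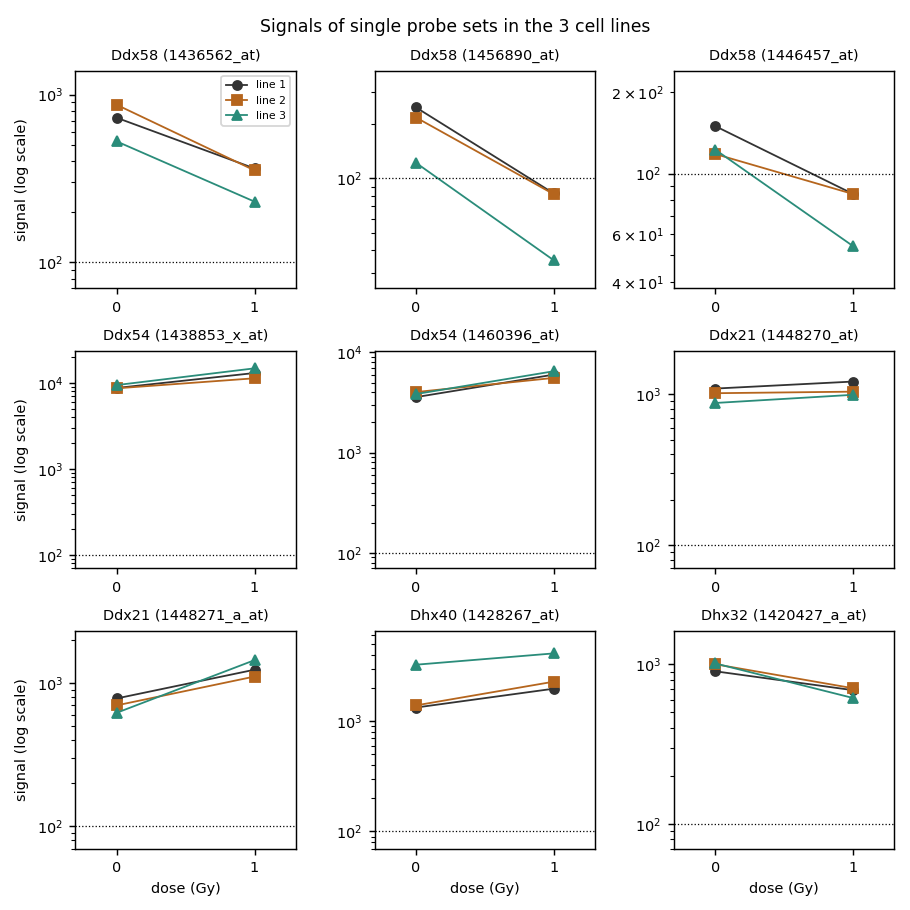
Signal (log axis, range set for each panel) against dose for 9 probe sets of Ddx58, Ddx54, Ddx21, Dhx40 and Dhx32, with 1 point per array and a line joining both arrays of each cell line. The dotted line is a signal of 100. The brightest Ddx58 probe set, in the first panel, slopes down in every line. The other 2 Ddx58 probe sets reached 100 only on mock arrays, which favours a downward slope. Line 3 of Dhx40 lies above the other lines at both doses.

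The 16 members of ribosome assembly in the nucleolus had a median log2 change of 0.09, and Ddx54 was the only one called. The helicases of the small and large subunit pathways lay on both sides of 0. Above it were Ddx31 at 0.34, Dhx37 at 0.32, Ddx52 at 0.22, Ddx49 at 0.19, Ddx21 at 0.12, Dhx33 at 0.12, Ddx47 at 0.11, Ddx27 at 0.07, Ddx51 at 0.04 and Ddx56 at 0.01. Below it were Ddx10 at -0.30, Ddx55 at -0.28, Ddx24 at -0.07, Ddx50 at -0.03 and Ddx18 at -0.002. None of these other 15 passed even an unadjusted p of 0.05.

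For Ddx21 and Ddx18, both needed for the processing of ribosomal RNA, the probe sets disagreed, which was seen only after their values were known. For Ddx21 the brighter probe set had a log2 change of 0.12 (adjusted p = 0.477). The dimmer gave 780.7, 698.4 and 620.3 on mock arrays and 1238, 1110 and 1444 after 1 Gy, a log2 change of 0.85 (SE 0.164, adjusted p = 0.0349). Its 3 irradiated arrays were all above the mock arrays. For Ddx18 a dimmer probe set had a log2 change of 0.55 (adjusted p = 0.0451), while the brightest gave -0.002. Counting a gene by any of its tested probe sets would give 4 members called in place of 2, while 25.7% of all genes are called by that rule. Of the members' own probe sets 7 were called, where 18.3% of all probe sets tested were called. The 7 include the dimmer probe sets of Ddx58, which passed the signal minimum only through mock arrays. The 47 members have 92 tested probe sets, 26 of the members having several and 21 having 1.

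None of the 10 splicing members was called, and their median log2 change was 0.16. The largest was that of Dhx38, the Prp16 helicase of the second catalytic step, with 519.9, 625.6 and 570.2 on mock arrays and 811.1, 687.8 and 716.9 on irradiated ones. Those arrays did not overlap, the log2 change being 0.37 (SE 0.146, adjusted p = 0.148). Dhx8, the Prp22 helicase that releases spliced mRNA, changed by 0.35, Ddx42, a partner of the U2 particle, by 0.35 and Ddx23, the Prp28 helicase, by 0.33. These last 3 passed an unadjusted p of 0.05, with adjusted p of 0.0983, 0.108 and 0.111. Dhx15, the Prp43 helicase that takes spent spliceosomes apart, gave 10055, 9925 and 7604 on mock arrays and 11714, 10413 and 10628 after 1 Gy. Its irradiated arrays were the higher ones throughout, with a log2 change of 0.26 (adjusted p = 0.240).

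The other splicing members had smaller or opposite values. Ddx20, of the SMN complex, changed by 0.05 on the log2 scale, Dhx16, the Prp2 helicase, by -0.11, Dhx35 by -0.12 and Ddx41 by -0.13. Ddx46, the Prp5 helicase, changed by -0.29 (adjusted p = 0.157), and its 5 tested probe sets ran from -0.29 to 0.30. In 7 of the 10 splicing members the mock and irradiated arrays did not overlap, against 36.2% of all members and 32.9% of all genes. They went in both directions, with Ddx41 and Ddx46 lower.

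Among the 6 members of translation, storage and decay of mRNA none was called, and the median log2 change was 0.06. The largest was that of Dhx34, a factor of nonsense-mediated decay, with 316.7, 297.1 and 298.0 on mock arrays and 291.0, 179.3 and 201.2 on irradiated ones (log2 change -0.47, SE 0.162, adjusted p = 0.112). The doses did not overlap. Line 1 changed by -0.12 and the other lines by -0.73 and -0.57, so that most of the difference came from lines 2 and 3. Ddx1 changed by 0.38 (adjusted p = 0.105), Ddx6, which represses and stores mRNA in P-bodies, by 0.27 (adjusted p = 0.159), Dhx36, which opens G-quadruplexes, by 0.16 and Dhx29, which helps the ribosome scan structured leaders, by -0.06.

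Ddx3x, an X-linked helicase of translation, was the brightest member. Its signals were 16907, 18832 and 15407 on mock arrays and 17785, 14966 and 16706 after 1 Gy. The doses overlapped, and the log2 change was -0.05 (SE 0.144, 95% interval -0.43 to 0.33, adjusted p = 0.840). An interval of this width leaves out a 1.5-fold change in either direction.

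The next brightest were the paralogous coactivators Ddx17 and Ddx5, which assist transcription factors, splicing and the processing of microRNA. Ddx17 gave 13071, 17492 and 17067 on mock arrays and 16922, 15386 and 17909 on irradiated ones, a log2 change of 0.09 (SE 0.153, adjusted p = 0.718). Ddx5 gave 16515, 14638 and 15163 against 20575, 14499 and 15920, a log2 change of 0.12 (SE 0.127, adjusted p = 0.522). In these brightest probe sets of both genes line 1 was higher after 1 Gy, line 2 was lower and the doses overlapped. Another Ddx5 probe set gave 13000, 13075 and 11656 on mock arrays and 17035, 14284 and 15313 after 1 Gy. There every line was higher and the doses did not overlap, with a log2 change of 0.30 (adjusted p = 0.156, limma). The tested Ddx5 probe sets ran from -0.20 to 0.30. Dhx9, the third of this group, changed by -0.02 on the log2 scale.

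The 4 members of mRNA export had a median log2 change of 0.05, no call and no unadjusted p under 0.05. Ddx39b (UAP56), which loads export factors on spliced mRNA, had the largest change. It gave 7189, 8135 and 5178 on mock arrays and 7661, 8048 and 5888 on irradiated ones (log2 change 0.09, SE 0.116, adjusted p = 0.621), with line 3 below the others at both doses. Its paralogue Ddx39a changed by 0.06, Ddx19b, which releases mRNA at the nuclear pore, by 0.04 and Ddx25, best known from the testis, by -0.06.

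Of the mitochondrial members, Dhx30, which serves the assembly of the mitochondrial ribosome, gave 2915, 3645 and 3604 on mock arrays and 2448, 3033 and 2243 on irradiated ones. All 3 lines were lower, the doses overlapped, and the log2 change was -0.40 (SE 0.144, adjusted p = 0.123). Ddx28, of the same process, changed by -0.21 (adjusted p = 0.364). Ddx11, a DNA helicase of sister chromatid cohesion that carries the family name, was dim at 155.9, 138.0 and 135.6 on mock arrays and 90.4, 100.9 and 116.3 on irradiated ones. The arrays did not overlap, and the log2 change of -0.49 (SE 0.154) had an adjusted p of 0.0957.

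The remaining 4 members were grouped as other, with a median log2 change of -0.02. Dhx40 had the largest change of them, with 1330, 1391 and 3252 on mock arrays and 1971, 2282 and 4118 after 1 Gy. Every line was higher after irradiation, but line 3 unirradiated was above lines 1 and 2 irradiated. The log2 change was 0.54 (SE 0.131, adjusted p = 0.0550), and with dose alone the adjusted p was 0.538. Dhx32 was looked at after its values were seen, since it lay as close to the threshold. It gave 904.3, 1001 and 1013 on mock arrays and 688.5, 708.0 and 614.9 on irradiated ones, with no overlap and a log2 change of -0.54 (SE 0.126, adjusted p = 0.0520). Dhx57 changed by 0.11 and Ddx59 by -0.15.

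**Figure D2:**
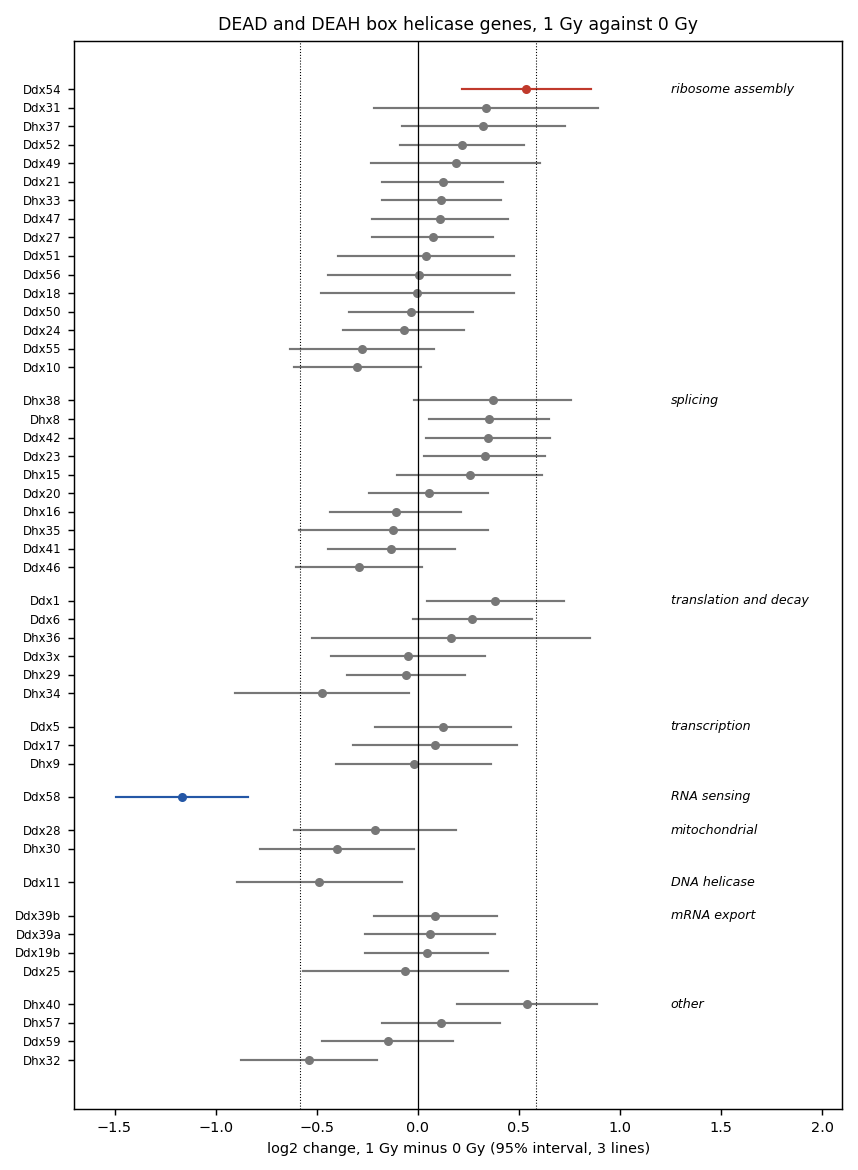
Log2 change after 1 Gy of each of the 47 members, grouped by role, with 95% intervals from the fit with the line as a block (n = 3 lines). Red rose and blue fell at an adjusted p under 0.05, grey was not called, and dotted lines mark 1.5-fold. Ddx58 is the only member past a dotted line.

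In size, few members moved far. Only Ddx58 reached 1.5-fold, 1 of 47 members, against 27.0% of all genes. The median absolute log2 change was 0.15 in the members and 0.31 in all genes, with median standard errors of 0.126 and 0.135. The members were brighter, with a median signal of 1273 against 815.6, and 26 of them had a mean signal over 1000. Their median log2 change was 0.05 (27 above 0 and 20 below) where that of all genes was -0.11. For each of the 45 members without a call the 95% interval lay within 2-fold of no change, and for 25 of them within 1.5-fold.

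The lines did not always move together. The direction was the same in 3 of 3 lines for 27 of 47 members (57.4%) and for 65.0% of all genes. Mock and irradiated arrays did not overlap in 17 members (36.2%) against 32.9% of genes. These shares are descriptions with no test.

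**Figure D3:**
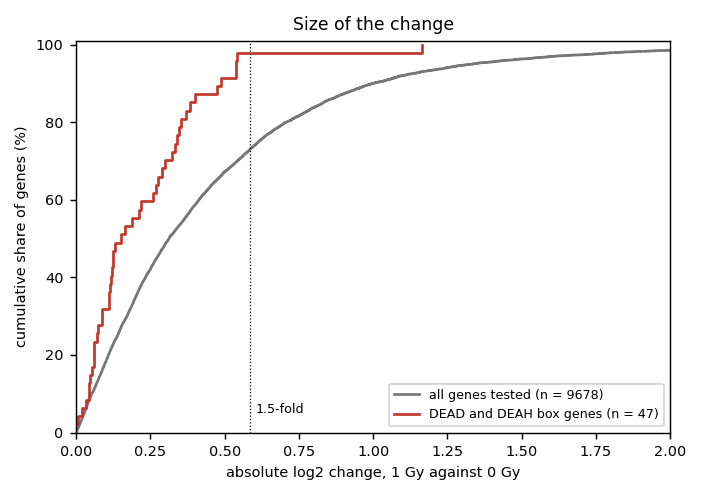
Cumulative share of genes (%) against the absolute log2 change after 1 Gy, for the 47 members (red) and all 9678 genes (grey), with 1.5-fold as a dotted line. The red curve reaches the line with 1 member, Ddx58, beyond it, while 27.0% of all genes lie beyond.

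The range over the 3 line means, each over both doses, was larger than the absolute dose change in 29 of the 47 members. From noise alone, such a range tends to exceed the single difference between dose means, which rest on more arrays. The count therefore does not weigh line against dose, and its share over all genes was not taken. The range had a median of 0.27 on the log2 scale. The widest was 1.78 for Ddx25, a gene near the detection limit, followed by 1.18 for Dhx40 and 0.83 for Dhx57. Ddx58 had a line range of 0.67, below its dose change, and line 3 was lowest at both doses. With 1 array per line and dose these ranges have no test.

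**Figure D4:**
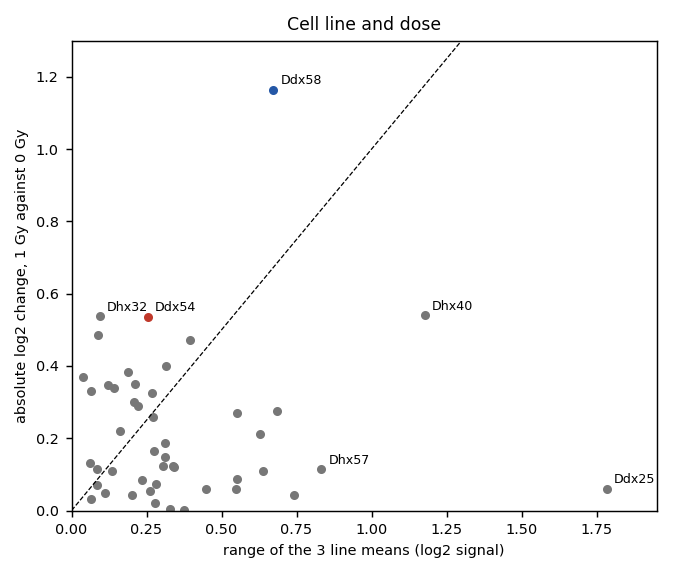
Absolute log2 change after 1 Gy against the range of the 3 line means (log2 signal), 1 point per member. Points under the dashed line of equality, 29 of 47, had a range over lines larger than the dose change. A range over 3 means tends to exceed a single difference from noise alone. Ddx58 (blue) and Ddx54 (red) lie above the dashed line.

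The proteins that Ddx58 works with held several called genes. Of 10 listed partners 7 were measured, and 4 were called, 2 in each direction (57.1% of the 7, against 21.3% of all genes). The median log2 change of 0.07 hides the split. The list was fixed with earlier results of these data known, so that its share is a description with no test. Trim25, which adds ubiquitin to RIG-I, fell from 4814 ± 752.1 to 1203 ± 315.0 (SD, n = 3; log2 change -2.03, SE 0.131, adjusted p = 0.0103). Mavs, the adaptor on mitochondria that RIG-I signals through, fell from 679.5 ± 67.0 to 360.0 ± 39.3 (log2 change -0.92, SE 0.151, adjusted p = 0.0260). Both falls also passed with dose alone, at adjusted p of 0.0220 and 0.0381 (limma). The RNA of Ddx58, Trim25 and Mavs was each called lower with the line as a block. Ddx58 was not called with dose alone (adjusted p = 0.0726, limma), and a joint change of the path was not tested.

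Further down the same path 2 genes were called higher. Ikbke, a kinase of IRF3, rose by 0.95 on the log2 scale, from 328.9 ± 65.2 to 633.8 ± 117.9 (SD, n = 3; adjusted p = 0.0235). Tank, a scaffold of that kinase complex, rose by 1.39, from 488.8 ± 161.4 to 1279 ± 413.0 (adjusted p = 0.0488). Neither passed with dose alone, the adjusted p being 0.0721 and 0.0697. The related kinase Tbk1 gave a log2 change of 0.19 (adjusted p = 0.311), the transcription factor Irf3 0.07 (adjusted p = 0.699) and the ubiquitin ligase Rnf135 -0.48 (adjusted p = 0.0520).

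Interferon-stimulated genes, among which Ddx58 itself is counted, were mostly below detection. Of 15 listed genes 12 were on the array and 3 reached 100. Ifi35, the brightest, changed by 0.08 on the log2 scale (3037 ± 290.9 to 3228 ± 472.9, SD, n = 3; adjusted p = 0.636) and Stat2 by -0.43 (adjusted p = 0.0981). Ifit2 gave 132.5, 62.7 and 209.1 on mock arrays and 44.9, 43.3 and 63.5 on irradiated ones. It was called lower with the block (adjusted p = 0.0417) and not with dose alone (adjusted p = 0.171). It reached 100 only on mock arrays, so that the signal minimum favoured a lower value, and no fold is given. Ifih1 (MDA5), the sister sensor, was listed among the other RNA helicases and reached 30.5 at most, and Irf7 reached 46.4. Genes below 100 on every array were not tested.

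Among the 14 measured RNA helicases without a Ddx or Dhx name, Supv3l1 and Znfx1 rose and none fell, with a list median of 0.01. Supv3l1, the mitochondrial RNA helicase of the degradosome, went from 818.6 ± 92.7 to 1445 ± 117.8 (log2 change 0.82, adjusted p = 0.0224, and 0.0436 with dose alone; limma, n = 3). Znfx1, a helicase with zinc fingers, went from 177.1 ± 74.8 to 393.1 ± 107.2 (log2 change 1.21, adjusted p = 0.0173, and 0.141 with dose alone). The 2 calls are 14.3% of the list, against 21.3% of all genes.

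Ribosome assembly partners gave 6 calls among 37 measured genes (16.2%, against 21.3% of all genes), with a median log2 change of 0.16. The calls were 4 higher (10.8% of the list, against 6.61% of all genes) and 2 lower (5.41%, against 14.7%). Nolc1, a nucleolar chaperone of small ribonucleoproteins, rose from 1150 ± 256.6 to 2803 ± 213.9 (SD, n = 3; log2 change 1.31, adjusted p = 0.0195, and 0.0311 with dose alone). Noc3l, of the early large subunit, rose by 0.88 (adjusted p = 0.0180). Wdr12, which works with Pes1 and Bop1, fell by 0.72 (adjusted p = 0.0396) and Dkc1, the pseudouridine synthase, fell by 0.66 (adjusted p = 0.0351). The remaining calls, Polr1c and Polr1e, are subunits of RNA polymerase I or shared with it, and both rose. With dose alone Nolc1 was the only call of this list.

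The partner lists of splicing, export and mRNA storage had no call, where 21.3% of all genes were called. That was 0 of 22 spliceosome partners, with a median log2 change of 0.15, 0 of 15 export partners, with 0.07, and 0 of 17 storage and decapping partners of Ddx6, with 0.01. At an unadjusted p under 0.05 (limma) the counts were 2, 3 and 1. With a trend in the variance prior 3, 4 and 1 of them were called. In these lists, as in the corresponding helicases, no gene reached 1.5-fold.

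**Figure D5:**
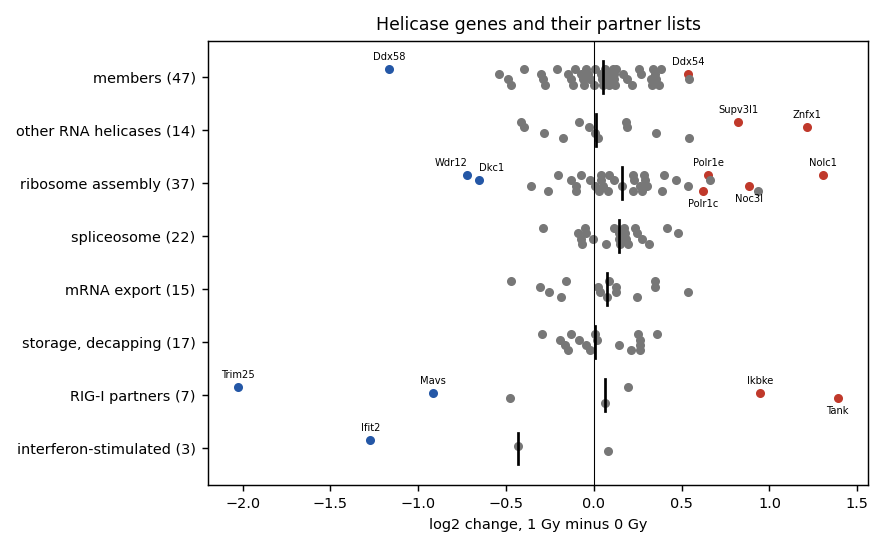
Log2 change after 1 Gy of the members and of the genes of each partner list (number measured in brackets), 1 point per gene, with the list median as a black bar. Red rose and blue fell at an adjusted p under 0.05, and grey was not called. The called genes with the widest spread belong to the 7 RIG-I partners, from Trim25 at -2.03 to Tank at 1.39.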

How the data were processed

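Total RNA of 6 samples was amplified, and the labelled complementary RNA was hybridised to Affymetrix whole mouse genome arrays. Per the labels, the deposited intensity signals come from MAS5, and they are linear. Trimmed by 2% of probe sets at either end, each array averages 500. The RMA background correction and quantile normalization that the paper describes are not part of them. The number of arrays limits the precision.

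Signals under 1 were set to 1 and put on the log2 scale. After removal of 64 control probe sets, the 21762 of 45037 that reached 100 on any array went into limma 3.58.1 in R 4.3.3 (dose, with the line as a block; Benjamini-Hochberg). The methods' ANOVA names dose alone, and that fit stands beside the calls. Replicate numbers mark the lines by the series' design text. Deviations from the group means correlated at 0.668 to 0.781 between arrays with the same number and at -0.495 to -0.0525 between others. A gene is its brightest probe set, by mean log2 signal, with 1 gene name in the platform annotation. The limma fit, with and without the line as a block, was tested on simulated data, and the other steps were not.

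The members, role groups and partner lists were chosen with earlier results of these data known. Every member is named, and signals on all arrays are given for called members past 1.5-fold, for the 5 brightest, and for the largest change of each role group. Of each partner list up to 4 called genes with the largest change are named; genes outside this rule (Ddx18, Ddx21, Dhx32, Polr1c, Polr1e, Tbk1, Irf3, Rnf135, Ifi35, Stat2, Ifih1, Irf7 and the markers) are named beyond it. Ddx54, called below 1.5-fold, is shown as the largest change of its role group. Promoters come from RefSeq (GRCm38.p6). Protein sequences were not analysed here.

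Alternatives were dose alone, no filter or 100 on 3 arrays, quantile normalization, scaling to 1 median, adding 16 before log2, signals under 100 set to 100, a variance trend, a minimum of 1.5-fold, the methods' test, the mean of a gene's probe sets, no _x_at or _s_at probe sets, any probe set of a gene, and leaving out each replicate.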

Additional observations from a re-analysis of the deposited data

How the results depend on the processing

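No change of a member reversed to a called opposite direction under any alternative run. The log2 change of Ddx58 ranged from -1.25 to -1.06 and that of Ddx54 from 0.38 to 0.66. With no replicate block, 0 members were called (6 higher and 3 lower at an unadjusted p under 0.05), 975 probe sets in place of 3974 (5004 at an unadjusted p under 0.05), 1 other RNA helicase in place of 2, 1 ribosome assembly partner in place of 6, 2 RIG-I partners in place of 4, and 0 interferon-stimulated genes in place of 1. With no filter, which tests 45037 probe sets, limma called 0 probe sets (6968 at an unadjusted p under 0.05), so 0 members and 0 genes of any list. With 1 replicate (both arrays of a line) left out, 0 to 299 probe sets, 0 members, 0 RIG-I partners to 1, and 0 genes of the other lists were called. At an unadjusted p under 0.05 limma then gave 3 members higher and 3 lower without replicate 1, 1 and 2 without replicate 2, and 2 and 2 without replicate 3. Over all 21762 probe sets the same threshold was passed by 6570, 6460 and 5714. These fits have fewer samples.

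The members called were 4 with 100 on at least 3 arrays (46 tested), 4 with log2 of the signal plus 16 and 4 with signals under 100 set to 100. Each of these added Dhx32 and Dhx40 to Ddx54 and Ddx58, while the share of all probe sets called was 24.8%, 21.8% and 19.7% in place of 18.3%. Quantile normalization and a common median each left 1, Ddx58 (17.1% and 17.0% of probe sets). An added minimum of 1.5-fold and the methods' test with its own thresholds also gave 1, Ddx58 (16.7% and 13.1%). Once Benjamini-Hochberg adjusted, the methods' test called 0 members (7 higher and 5 lower at an unadjusted p of the same test under 0.05) and 352 probe sets (1.62%). At that unadjusted p 4681 of all 21762 probe sets passed. The mean of a gene's probe sets called 5, Ddx21 being added to the 4 above, and 28.0% of all genes. Any tested probe set of a member, an alternative chosen after seeing the data, called 4, and 25.7% of all genes. A trend in the variance prior called 8 members (Ddx1, Ddx42, Ddx54, Ddx58, Dhx8, Dhx30, Dhx32 and Dhx40) and 6121 probe sets (28.1%).

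Of the lists, the variance trend called 4 other RNA helicases, 10 ribosome assembly partners, 3 spliceosome partners, 4 export partners and 1 storage partner. That fit called 28.1% of all probe sets. Spliceosome partners had 1 call with 100 on at least 3 arrays, with the signal plus 16 and with signals under 100 set to 100. Export partners had 1 with 100 on at least 3 arrays, with signals under 100 set to 100 and with the mean of probe sets. Interferon-stimulated genes had 0 with 100 on at least 3 arrays, with signals under 100 set to 100 and with the methods' test, and 2 with the mean of probe sets. The methods' test gave 1 other RNA helicase with its own thresholds and, after adjustment, 0 of them, 1 ribosome assembly partner and 0 RIG-I partners. With a common median 31 members lay above 0 in place of 27. Beyond the changes named, the block changed no other call in the members. The cause of these shifts was not tested, and members near a signal of 100, such as Ddx25, Ddx11 and Dhx37, are limited by their signal over background.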
